A study of Mus musculus with 12 samples.

Results

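The gene models that lie within 10 Mb of Grin1 on mouse chromosome 2 were compared between wild-type cortex, cortex with a Grin1 knockdown and cortex with the knockdown and a Cre rescue. Members were all tested models whose locus overlaps chr2:15291181-35319187 in mm10, leaving out Grin1 itself and the 3 genes Gad2, Hspa5 and Ptgds. This gave 264 of 18417 tested models for GluN1 against WT, 265 of 18430 for GluN1Cre against GluN1 and 266 of 18429 for GluN1Cre against WT. A further 121, 124 and 117 models in the window were listed by the authors' tables as not tested, and none of their values is used. At the edges of the window, the outermost members were Plxdc2, 8.53 Mb from Grin1 (8.41 FPKM in WT and 8.20 FPKM in GluN1), and Stom, 9.99 Mb away (3.65 and 4.03 FPKM). The first models outside, both unnamed and 10.2 and 10.0 Mb away, had 55.7 and 51.7 FPKM and 18.4 and 22.1 FPKM. FPKM is fragments per kilobase of model of gene model, scaled to the number of mapped fragments.

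The 12 samples were polyadenylated RNA of frontal cortex from male mice aged 14 weeks, F1 hybrids of C57Bl/6 and 129/SvlmJ, with 4 in each of the groups that the labels call WT, GluN1 and GluN1Cre. WT animals are wild type, GluN1 animals carry the Grin1 knockdown, and GluN1Cre animals carry the knockdown and a Cre that is meant to restore the gene. All 12 mice, the wild type included, received tamoxifen, a ligand of inducible forms of Cre, starting at the age of 10 weeks: a gavage dose of 6 mg, and about 14 mg taken with the chow over 2 weeks. The driver and form of the Cre, the design of the knockdown allele and the strain of the DNA around it are not given in the sources used here.

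Grin1 encodes GluN1, the obligatory subunit of NMDA-type glutamate receptors. An allele that alters one locus is inherited together with the DNA on either side of it, and the closer a neighbour lies, the more rarely recombination parts them. The chromosomal neighbours of an altered gene are therefore a usual check in such a design. The neighbourhood of Grin1 is dense in genes of unlike function: the neighbours include enzymes of the endoplasmic reticulum, a subunit of the anaphase-promoting complex and a lipid transporter, and farther out the synaptic genes Dnm1 and Olfm1.

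Of the 216 distinct single symbols among the members, 210 were found on chromosome 2 of GENCODE M21 (GRCm38), 204 of them protein-coding. Pbx3, called in all 3 comparisons, has no entry among the RefSeq promoters used here, so its start region is not shown. The start regions of the other 5 of the 6 members called in any comparison are shown, with that of Grin1 for reference. They are shown because results below turn on their transcripts. Each is the run of 150 bases just before the RefSeq start site on GRCm38.p6, read 5′ to 3′ on the gene's own strand, with every CpG in capitals. They lie at chr2:26640245-26640394 (Snhg7, minus strand), chr2:23321096-23321245 (Nxph2, plus), chr2:27142478-27142627 (Fam163b, minus), chr2:24975883-24976032 (Pnpla7, plus), chr2:26294558-26294707 (4932418E24Rik, listed by RefSeq as Ccdc187, minus) and chr2:25319188-25319337 (Grin1, minus).
Snhg7: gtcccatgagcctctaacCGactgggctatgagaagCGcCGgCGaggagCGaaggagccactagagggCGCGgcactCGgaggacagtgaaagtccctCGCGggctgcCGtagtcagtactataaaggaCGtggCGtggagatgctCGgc
Nxph2: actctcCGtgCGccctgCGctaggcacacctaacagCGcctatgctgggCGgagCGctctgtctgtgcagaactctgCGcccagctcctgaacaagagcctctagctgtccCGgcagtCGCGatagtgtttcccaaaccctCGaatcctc
Fam163b: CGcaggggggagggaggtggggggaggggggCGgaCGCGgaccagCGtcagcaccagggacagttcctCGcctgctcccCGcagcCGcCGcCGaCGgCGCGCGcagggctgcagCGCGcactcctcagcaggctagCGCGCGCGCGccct
Pnpla7: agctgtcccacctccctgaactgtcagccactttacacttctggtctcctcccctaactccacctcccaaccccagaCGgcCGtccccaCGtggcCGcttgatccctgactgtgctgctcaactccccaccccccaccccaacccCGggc
4932418E24Rik: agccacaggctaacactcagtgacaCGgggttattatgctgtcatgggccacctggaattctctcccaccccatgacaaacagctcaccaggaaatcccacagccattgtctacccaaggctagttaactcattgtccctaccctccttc
Grin1: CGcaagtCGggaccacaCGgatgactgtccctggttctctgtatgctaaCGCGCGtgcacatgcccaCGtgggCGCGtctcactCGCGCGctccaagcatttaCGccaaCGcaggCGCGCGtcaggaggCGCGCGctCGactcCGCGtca
The runs differ widely in CpG content. Grin1 holds 23 CpG, Fam163b 21, Snhg7 14 and Nxph2 11, while Pnpla7 holds 5 and 4932418E24Rik 1. Promoters of the region were GC-rich as a set: over the 300-base windows of RefSeq (250 bases before to 50 after a start), 263 promoters of 208 member genes had a median GC content of 60.7% and a median of 20 CpG, against 52.7% and 7 over all 32851 promoters of the table. All promoters include those of genes that were not tested in this tissue. The full cyclic AMP response element, TGACGTCA, which reads the same on both strands, was found in 4 of the 263 (1.52%) and in 588 of all (1.79%). The 4 belong to Lrrc8a, 1700084E18Rik, Nup214 and Slc25a25, and none of these genes was called in any table. The windows of Lrrc8a and 1700084E18Rik overlap on opposite strands, so the same site may be counted in both.

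The tables hold 1 FPKM per group and no value per animal, so read depth and the spread between animals are unknown and every p and q is that of the authors' Cuffdiff test. A model is called where p is under 0.05 and q under 0.10, the threshold of the series' design text. Each group stands in 2 tables that were assembled and normalised separately, and the same group's FPKM differed between its tables by a median of 0.02 (WT, 203 members), 0.01 (GluN1, 203) and 0.02 (GluN1Cre, 204) on the log2 scale. Between 13 and 14 members differed by over 0.25 in this way. Models that share a name and locus were paired by file order, so some of these pairs may join different models. An unnamed model at chr2:19909758-20810535, for example, was paired at 0.315 and 9.29 FPKM in WT. How many of these differences come from the choice of table alone is therefore unknown. Grin1 lay at 56.7 FPKM in GluN1 against 138 FPKM in WT, and its log2 folds in the 3 comparisons were -1.28, 0.40 and -0.82. Cortical excitatory neuron markers were present in all groups, with 5 of 5 tested and none listed at 0. The lists of marker genes for other tissues differed between groups: 7 of 8 olfactory bulb models were called higher in GluN1 than in WT (summed level 51.8 against 129 FPKM), and 5 of 7 striatal models lower (99.98 against 77.4 FPKM). Fewer cells of a type and less RNA per cell cannot be told apart in such bulk tissue.

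Few members passed the threshold in any comparison. In GluN1 against WT 4 of 264 members were called (1.52%), against a background of 2.52% of all tested models and 33 of 1183 models (2.79%) on chromosome 2 outside the window. Of the 4, 3 were lower and 1 higher in GluN1. The background was 0.858% for lower and 1.66% for higher. In GluN1Cre against GluN1 2 of 265 were called (0.755%, background 0.689%), and both were lower in GluN1Cre; the background was 0.559% for lower and 0.13% for higher. In GluN1Cre against WT 3 of 266 were called (1.13%, background 0.841%), 2 lower and 1 higher, with a background of 0.478% for lower and 0.364% for higher. On chromosome 2 outside the window 7 of 1179 models (0.594%) were called in GluN1Cre against GluN1 and 5 of 1174 (0.426%) in GluN1Cre against WT. The share in the window was thus below both backgrounds, all tested models and the rest of chromosome 2, in the first comparison. In the others it was above both, on counts of 2 and 3, which are too few to tell the shares apart. The calls fall on 6 models. An unadjusted p under 0.05 was held by 14, 4 and 9 members, or 5.30%, 1.51% and 3.38%, against 7.91%, 4.19% and 4.32% of all tested models.

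**Figure D1:**
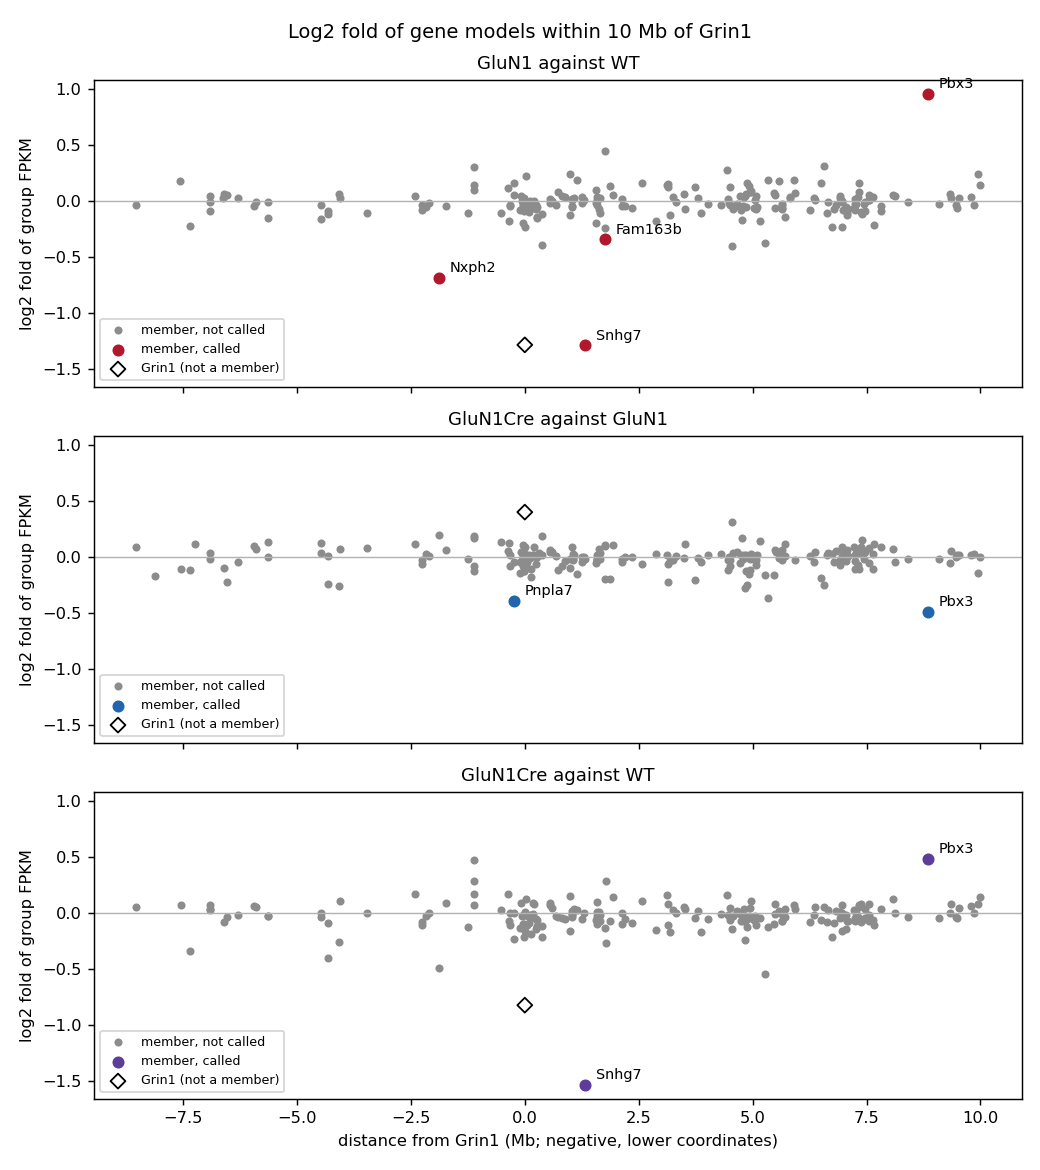
Log2 fold of group FPKM (vertical axis) against distance from Grin1 in Mb (horizontal axis, negative toward lower coordinates) for members with a mean FPKM of at least 1, 1 panel per comparison; coloured points were called, grey points were not, and the open diamond is Grin1. Snhg7 lies as low as Grin1 in GluN1 against WT (-1.29 against -1.28), and Pbx3 is the called point farthest from Grin1; 4932418E24Rik, called at a mean below 1 FPKM, is not drawn.

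The called member with the largest difference was Snhg7, a small nucleolar RNA host gene. Its transcript is non-coding, and the model that carries it, named Snhg7,Snora17,Snora43 in the tables, spans chr2:26636918-26640260, 1.32 Mb from Grin1 toward higher coordinates. GENCODE M21 places Snora17 (chr2:26639190-26639321) and Snora43 (chr2:26637847-26637985) inside that span on the same minus strand; such RNAs guide the conversion of uridine to pseudouridine. Snhg7 lay at 11.9 FPKM in WT and 4.86 FPKM in GluN1, a log2 fold of -1.29 (q = 0.00456 in the authors' deposited table, Cuffdiff). In the table of GluN1Cre against WT it lay at 13.1 FPKM in WT and 4.51 FPKM in GluN1Cre, a log2 fold of -1.53 (q = 0.0098 in the authors' deposited table, Cuffdiff). Between GluN1 (4.56 FPKM) and GluN1Cre (4.51 FPKM) the log2 fold was -0.01, with p = 0.94 in the authors' deposited table.

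Snhg7 was thus high in WT in both tables that hold it, and low in GluN1 and GluN1Cre in all 4 values. It stood at 41.0% of WT in GluN1 and 34.5% in GluN1Cre. For Grin1 the same shares were 41.0% and 56.5%, and Grin1 was called between GluN1Cre and GluN1 where Snhg7 was not. The difference of the folds of the 2 genes was not tested. A second model named Snhg7 at an overlapping locus, tested in 2 tables, lay at 0.822 FPKM in WT and 0.734 FPKM in GluN1Cre and was not called. The 3 snoRNA and host symbols share 1 model, so reads of the snoRNAs and of the host transcript are not separated here.

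Pbx3, a homeodomain transcription factor that binds DNA beside Hox proteins, was called in all 3 tables. It lies on the minus strand at chr2:34171457-34373142 (GENCODE M21), 8.85 Mb from Grin1, near the far edge of the window. Its level was 6.95 FPKM in WT and 13.5 FPKM in GluN1, a log2 fold of 0.96 (q = 0.00456 in the authors' deposited table, Cuffdiff). It was 16.1 FPKM in GluN1 and 11.5 FPKM in GluN1Cre, a log2 fold of -0.49 (q = 0.0118 in the authors' deposited table, Cuffdiff). It was 7.79 FPKM in WT and 10.9 FPKM in GluN1Cre, a log2 fold of 0.48 (q = 0.0098 in the authors' deposited table, Cuffdiff).

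Pbx3 was therefore lowest in WT, highest in GluN1 and between them in GluN1Cre, the order opposite to that of Grin1. Its GluN1 value differed between tables (13.5 and 16.1 FPKM), more than for most members. The summed level of the 7 olfactory bulb marker genes had the same order: 51.8 FPKM in WT and 129 FPKM in GluN1, 127 FPKM in GluN1 and 79.6 FPKM in GluN1Cre, and 52.1 FPKM in WT and 79.5 FPKM in GluN1Cre. Of the tested bulb models, 7 of 8 were called higher, 7 of 8 lower and 6 of 7 higher in these comparisons, and none was listed at 0. The astrocyte, meningeal fibroblast and endothelial sums also had the order of Pbx3. Over the same pairs of groups the astrocyte sum was 200, 239, 248, 218, 205 and 214 FPKM. The fibroblast sum was 51.0, 66.3, 66.5, 57.2, 51.2 and 56.7 FPKM. The endothelial sum was 38.1, 43.6, 43.9, 42.8, 38.2 and 42.3 FPKM. The striatal sum had another order, at 99.98, 77.4, 76.6, 71.5, 99.5 and 71.2 FPKM. The oligodendrocyte, microglial and red blood cell sums also had other orders. The cortical excitatory sum had the order of Grin1, opposite to that of Pbx3, at 1579, 1422, 1434, 1499, 1586 and 1484 FPKM. None of its 5 models was called in any comparison. The part of any of these tissues or cells in the Pbx3 result was not tested. For Snhg7 the values in GluN1 and GluN1Cre were 4.56 and 4.51 FPKM where the olfactory bulb sum was 127 and 79.6 FPKM. The striatal sum there was 76.6 and 71.5 FPKM. Like Snhg7, the striatal sum was highest in WT and lowest in GluN1Cre, and no other sum had that order. Striatal models called lower were 5 of 7 in GluN1 against WT, 0 of 6 in GluN1Cre against GluN1 and 6 of 7 in GluN1Cre against WT. The part of these tissues or cells in the Snhg7 result was not tested either.

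**Figure D2:**
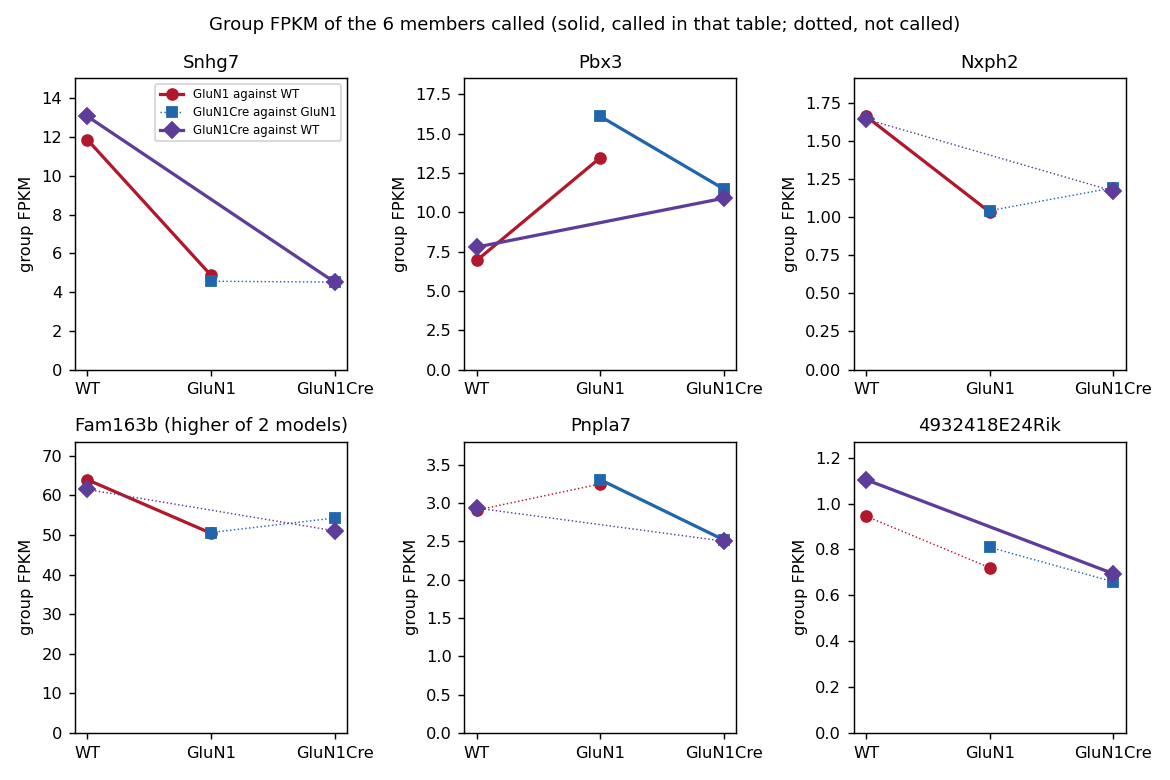
Group FPKM (vertical axis, from 0) of the 6 called members in WT, GluN1 and GluN1Cre (horizontal axis); each line joins the 2 groups of 1 of the authors' tables, solid where the model was called there. Snhg7 is high in WT and low in the other groups in every table, while Pbx3 is highest in GluN1.

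Nxph2 encodes a neurexophilin, a secreted glycoprotein that binds alpha-neurexins at synapses. It lies on the plus strand at chr2:23321246-23401973, 1.89 Mb from Grin1 toward lower coordinates, and was the sole called member on that side in GluN1 against WT. It fell from 1.66 FPKM in WT to 1.03 FPKM in GluN1, a log2 fold of -0.68 (q = 0.00833 in the authors' deposited table, Cuffdiff). Against GluN1Cre the values were 1.64 FPKM in WT and 1.17 FPKM in the rescue group, a log2 fold of -0.49 that was not called (p = 0.00435 and q = 0.317 in the authors' deposited table). Between GluN1 (1.04 FPKM) and GluN1Cre (1.19 FPKM) the log2 fold was 0.19, also not called. At such low levels a pseudocount of 1 FPKM brings the first of these folds to -0.39.

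Fam163b lies on the minus strand at chr2:27110380-27142491, 1.79 Mb from Grin1 by this annotation. The tables hold 2 models of that name with the same locus. The abundant one fell from 63.9 FPKM in WT to 50.4 FPKM in GluN1, a log2 fold of -0.34 (q = 0.0411 in the authors' deposited table, Cuffdiff). It was 61.5 FPKM in WT and 51.0 FPKM in GluN1Cre (log2 fold -0.27, p = 0.0021 and q = 0.196 in the authors' deposited table), and 50.6 FPKM in GluN1 and 54.3 FPKM in GluN1Cre (log2 fold 0.10). The scarce one had the opposite sign, 8.40 FPKM in WT and 11.5 FPKM in GluN1 (log2 fold 0.45, p = 0.132 in the authors' deposited table), and was not called. Whether counting used strand is not given in the sources used here, so reads of 1 gene may be split between these models, and the Fam163b value is uncertain to that extent.

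Pnpla7, a phospholipase related to neuropathy target esterase, is the called member nearest to Grin1, at 237 kb toward lower coordinates (chr2:24976033-25054057, plus strand). It was called in GluN1Cre against GluN1 alone, where it fell from 3.31 to 2.52 FPKM, a log2 fold of -0.39 (q = 0.0291 in the authors' deposited table, Cuffdiff). WT lay between those levels, at 2.91 FPKM beside 3.25 FPKM in GluN1 (log2 fold 0.16) and at 2.94 FPKM beside 2.504 FPKM in GluN1Cre (log2 fold -0.23, p = 0.047 in the authors' deposited table, not called). The model 4932418E24Rik, Ccdc187 in GENCODE M21 (chr2:26243469-26294557, minus strand), encodes a coiled-coil protein. It was called in GluN1Cre against WT, at 0.694 against 1.104 FPKM, a log2 fold of -0.67 (q = 0.0182 in the authors' deposited table, Cuffdiff). Its other values were 0.945 FPKM in WT and 0.721 FPKM in GluN1, and 0.810 FPKM in GluN1 and 0.659 FPKM in GluN1Cre, with no call. Its mean level is below 1 FPKM, and with a pseudocount of 1 FPKM the called fold becomes -0.31.

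The genes next to Grin1 differed little. Grin1 occupies chr2:25291181-25319187 on the minus strand. The nearest members with a single symbol and a mean of at least 1 FPKM in GluN1 against WT were taken, 6 on each side. Toward lower coordinates they were Anapc2, Ssna1, Tprn, Tmem203, Ndor1 and Rnf208, all within 47 kb by the authors' loci. Toward higher coordinates they were Man1b1, Dpp7, Uap1l1, Entpd2, Npdc1 and Abca2, all within 109.5 kb. None of these 12 was called by Cuffdiff in any table, where 2.52%, 0.689% and 0.841% of all tested models were. On so few models, 0 calls cannot be told from those shares. An unadjusted p under 0.05 was held by Rnf208 and Dpp7 in GluN1 against WT and by none of the 12 in the other tables.

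Anapc2, the cullin subunit of the anaphase-promoting complex, begins the series 5.27 kb from Grin1. It lay at 30.8 FPKM in WT and 29.97 FPKM in GluN1 (log2 fold -0.04), at 30.1 and 30.6 FPKM in GluN1 and GluN1Cre (0.03), and at 30.8 and 30.4 FPKM in WT and GluN1Cre (-0.02). Man1b1, a mannosidase that trims glycans in the secretory pathway, is the nearest on the other side, 13.6 kb away by the authors' locus. It lay at 20.9 FPKM in both WT and GluN1 and at 21.2 and 21.1 FPKM in GluN1Cre in its 2 tables, with log2 folds of -0.00, 0.02 and 0.01 in the 3 tables.

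Abca2, a lipid transporter abundant in oligodendrocytes, was as flat, with log2 folds of -0.00, -0.01 and -0.02 at about 38.3 FPKM in WT. Npdc1, the most abundant of the 12, had 104 FPKM in WT and 97.1 FPKM in GluN1 (log2 fold -0.10). Entpd2, which breaks down extracellular ATP, had 5.93 and 5.85 FPKM in these groups (-0.02). Of the 12, Dpp7, a lysosomal dipeptidyl peptidase, and Rnf208, a RING finger protein, had the widest folds in GluN1 against WT. Dpp7 lay at 8.75 FPKM in WT and 10.2 FPKM in GluN1, a log2 fold of 0.22 (p = 0.0469 and q = 0.611 in the authors' deposited table). Rnf208 lay at 56.5 FPKM in WT and 49.3 FPKM in GluN1, a log2 fold of -0.20 (p = 0.0295 and q = 0.478 in the authors' deposited table). In GluN1Cre against WT the widest fold of the 12 was that of Tprn (taperin), -0.22 at 5.56 FPKM in WT and 4.78 FPKM in GluN1Cre, not called.

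A merged model named E130003G02Rik,Lrrc26,Tmem210 is the sole member whose listed locus overlaps Grin1 (this model was chosen after its values were seen). By GENCODE M21, Tmem210 (chr2:25288145-25289189) and Lrrc26 (chr2:25289915-25291180) lie on the plus strand against the 3′ end of Grin1. It lay at 8.56 FPKM in WT and 7.28 FPKM in GluN1 (log2 fold -0.23, p = 0.0703 in the authors' deposited table), and at 8.53 and 7.64 FPKM in WT and GluN1Cre (-0.16). In GluN1Cre against GluN1 it lay at 5.93 FPKM in GluN1 and 6.32 FPKM in GluN1Cre (0.09), so its GluN1 value differed more between tables than GluN1 and WT did within one. The model carries the locus of Grin1 in the tables, and without stated strand in the counting its reads and those of Grin1 cannot be told apart with certainty.

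**Figure D3:**
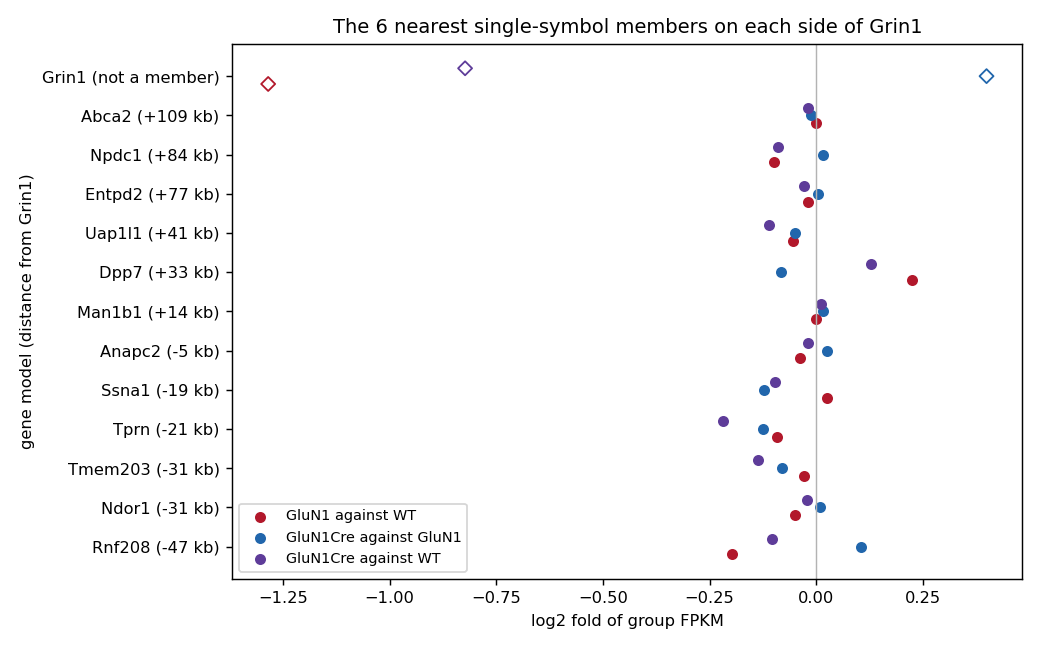
Log2 fold of group FPKM (horizontal axis) of the 12 nearest single-symbol members with a mean of at least 1 FPKM in GluN1 against WT. They are ordered by distance from Grin1 in kb (vertical axis, minus toward lower coordinates). Grin1 stands on top as open diamonds, and colours are the 3 comparisons. All 36 folds of these 12 members lie between -0.22 and 0.22, while Grin1 lies at -1.28, 0.40 and -0.82.

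Sizes of fold did not decline evenly with distance. For members whose mean reached 1 FPKM, the median absolute log2 fold in GluN1 against WT was 0.05 under 1 Mb (42 models), 0.05 from 1 to 2.5 Mb (39), 0.08 from 2.5 to 5 Mb (44) and 0.06 from 5 to 10 Mb (89). It was 0.06 on chromosome 2 beyond 10 Mb and 0.07 over all 13918 such models. In GluN1Cre against GluN1 the same 4 medians were 0.05, 0.04, 0.04 and 0.05, beside 0.05 beyond the window and over all models. In GluN1Cre against WT they were 0.09, 0.07, 0.05 and 0.05, beside 0.06 and 0.06, so here the near classes had the larger folds. Genes are not replicates and neighbouring models share loci, so no test was made between classes.

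The signed folds within 1 Mb leaned downward in both comparisons with WT. In GluN1 against WT 29 of 42 folds (69.0%) were below 0 at a median of -0.04, against 53.2% and -0.01 over all models. In GluN1Cre against WT 32 of 44 (72.7%) were below 0 at a median of -0.04, against 55.8% and -0.01 over all. In GluN1Cre against GluN1 21 of 44 (47.7%) were below 0 at a median of 0.00. The first and second of these comparisons share the WT libraries, so they are not separate observations. In GluN1Cre against WT the lean was not confined to the nearest class. There 64.1% were below 0 from 1 to 2.5 Mb, 67.4% from 2.5 to 5 Mb and 60.9% from 5 to 10 Mb. For GluN1 against WT these shares were 53.8%, 50% and 55.1%. The class from 1 to 2.5 Mb held 3 of the 4 calls of GluN1 against WT (3 of 45, 6.67%), beside 2.52% of all tested models and 2.79% on chromosome 2 beyond the window. In the class under 1 Mb 0 of 50 were called by Cuffdiff, with an unadjusted p under 0.05 for 2, and from 2.5 to 5 Mb 0 of 57, also with 2.

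Over the whole window, 121 of 214 folds (56.5%) were below 0 in GluN1 against WT, 105 of 214 (49.1%) in GluN1Cre against GluN1 and 139 of 213 (65.3%) in GluN1Cre against WT. The medians were -0.02, 0.00 and -0.03, beside -0.01, -0.00 and -0.01 over all models of the tables. The middle 50% of members lay from -0.07 to 0.04, from -0.05 to 0.04 and from -0.07 to 0.03 in that order. Log2 folds beyond 0.25 in size were held by 11 of 214, 6 of 214 and 11 of 213 members (5.14%, 2.80% and 5.16%), against 8.81%, 5.01% and 5.53% of all models. By side, 48 members with folds lay toward lower coordinates and 165 toward higher ones in GluN1 against WT, with medians of -0.04 and -0.01.

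**Figure D4:**
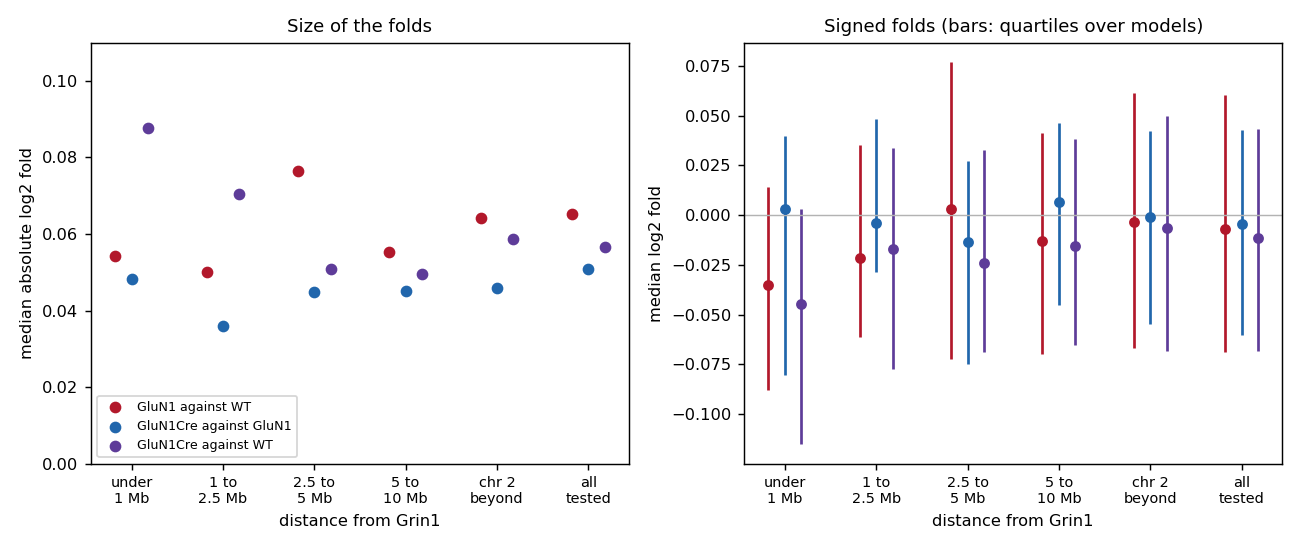
Median absolute log2 fold (left) and median log2 fold with quartiles over models (right) by distance from Grin1, for members in 4 classes, for chromosome 2 beyond the window and for all tested models, each where the mean reached 1 FPKM; colours are the 3 comparisons. The class under 1 Mb has the largest absolute median in GluN1Cre against WT (0.09) and medians of -0.04 in both comparisons with WT.

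Members were also grouped by what their products do, in 9 lists. Genes were matched by symbol, so some members under older symbols, such as Spna2 for Sptan1 of the synapse list, are not counted. Models that share a name count separately, and both Fam163b models are in the synapse list. Of all tested models 2.52%, 0.689% and 0.841% were called in the 3 comparisons. In lists this short, 0 or 1 call is too few to set a list apart from those shares. Genes of synapse and excitability counted 22 models: 1 fell, 0 rose and 21 were not called in GluN1 against WT, the 1 being Fam163b. Nxph2, which also fell in that comparison, is not on the list. Their median log2 fold was -0.08 with 16 of 22 below 0, beside -0.01 over all models. In GluN1Cre against GluN1 0 of 22 were called by Cuffdiff, with an unadjusted p under 0.05 for 0, at a median of 0.04. In GluN1Cre against WT 0 were called, with an unadjusted p under 0.05 for 2, at a median of -0.02. The 5 cortical excitatory neuron markers, none called in any table, had medians of -0.15, 0.09 and -0.06 in the 3 comparisons, and their summed level was 1579 FPKM in WT and 1422 FPKM in GluN1. The part of those cells in the values of the synapse list was not tested. Olfm1 (olfactomedin 1, secreted by neurons) was the most abundant member of the window and had 726 FPKM in WT and 641 FPKM in GluN1, a log2 fold of -0.18 (p = 0.0544 in the authors' deposited table). Dnm1, the dynamin that pinches off synaptic vesicles, had 361 and 341 FPKM (-0.09). The calcium channel gene Cacna1b had 22.9 and 21.2 FPKM (-0.11). The lowest p of the list after Fam163b was that of Garnl3, at 27.7 FPKM in WT and 23.8 FPKM in GluN1 (-0.22, p = 0.0057 and q = 0.179 in the authors' deposited table). These 4 were named after their values were seen.

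Chromatin and transcription genes counted 23, 25 and 24 models in the 3 tables, and Pbx3 was the 1 called in each. Their medians were 0.02, 0.00 and -0.01. Lipid and prostaglandin genes counted 11, 11 and 10 models with Pnpla7 as the 1 call, in GluN1Cre against GluN1, at medians of 0.04, -0.03 and -0.02. The other 6 lists held no call in any table.

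Of the 15 mitochondrial models 0 were called, with an unadjusted p under 0.05 for 1, 0 and 0, and medians of -0.04, -0.03 and -0.06. Pmpca, a subunit of the mitochondrial processing peptidase, had 28.2 FPKM in WT and 28.5 FPKM in GluN1, and the merged model Gm996,Phpt1, which holds a histidine phosphatase gene, 56.8 and 55.3 FPKM. The 1 low p was that of Trub2, named after its values were seen, at 10.9 and 13.2 FPKM (log2 fold 0.28, p = 0.00875 and q = 0.233 in the authors' deposited table). Of the 17, 16 and 17 models of glycosylation and endoplasmic reticulum 0 were called, with an unadjusted p under 0.05 for 0 in each table. Their folds in GluN1 against WT ran from -0.06 to 0.05. In that group Dpm2, a subunit of dolichol-phosphate mannose synthase, had 38.0 and 37.2 FPKM, and the merged sialyltransferase model St6galnac4,St6galnac6 49.0 and 47.9 FPKM.

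Translation and RNA genes (10, 9 and 10 models) had 0 calls and 0 unadjusted p under 0.05, at medians of -0.04, 0.03 and -0.03. The exonuclease gene Rexo4 had 22.4 and 21.3 FPKM in WT and GluN1, and Gle1, an mRNA export factor, 15.8 and 15.3 FPKM. Ubiquitin and cell cycle genes (10, 9 and 10 models) likewise had 0 calls and 0 unadjusted p under 0.05, at medians of -0.03, 0.02 and -0.01; Fbxw5, an F-box protein, had 33.4 and 33.1 FPKM. Immune genes (5, 6 and 5 models) had 0 calls and 0 unadjusted p under 0.05, at medians of -0.00, 0.10 and 0.08 over 3, 4 and 4 models with a mean of at least 1 FPKM. All 4 of these folds were above 0 in each GluN1Cre comparison. Among them Traf2, a signalling adaptor of the TNF receptors, had 3.18 and 3.17 FPKM, and Sh2d3c 7.25 and 6.69 FPKM.

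Vessel and matrix genes (13, 14 and 14 models) had 0 calls, with an unadjusted p under 0.05 for 4 in GluN1 against WT, 1 in GluN1Cre against GluN1 and 0 in GluN1Cre against WT, where 7.91%, 4.19% and 4.32% of all tested models had one. Their medians were 0.10, -0.05 and 0.04. Lamc3, a laminin chain, had 1.20 FPKM in WT and 1.49 FPKM in GluN1 (log2 fold 0.31, p = 0.0089 and q = 0.236 in the authors' deposited table), and 1.49 and 1.25 FPKM in GluN1 and GluN1Cre (-0.25). Cercam had the opposite sign, at 1.497 and 1.13 FPKM (-0.40, p = 0.017 and q = 0.353 in the authors' deposited table). The Cercam values here and below are those of 1 of 2 models of that name. The other 2 of the 4, named after their values were seen, were the actin-severing gelsolin gene Gsn (14.0 and 16.5 FPKM, log2 fold 0.24) and the receptor gene Notch1 (3.74 and 4.27 FPKM, 0.19). The vessel gene Egfl7 had 17.0 and 16.8 FPKM, and the merged model Adamts13,Cacfd1 17.9 and 16.7 FPKM. In the same comparison 4 of 7 meningeal fibroblast markers were called higher (summed level 51.0 against 66.3 FPKM), and 0 of 4 endothelial markers (38.1 against 43.6 FPKM); the part of those cells in the vessel and matrix values was not tested.

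**Figure D5:**
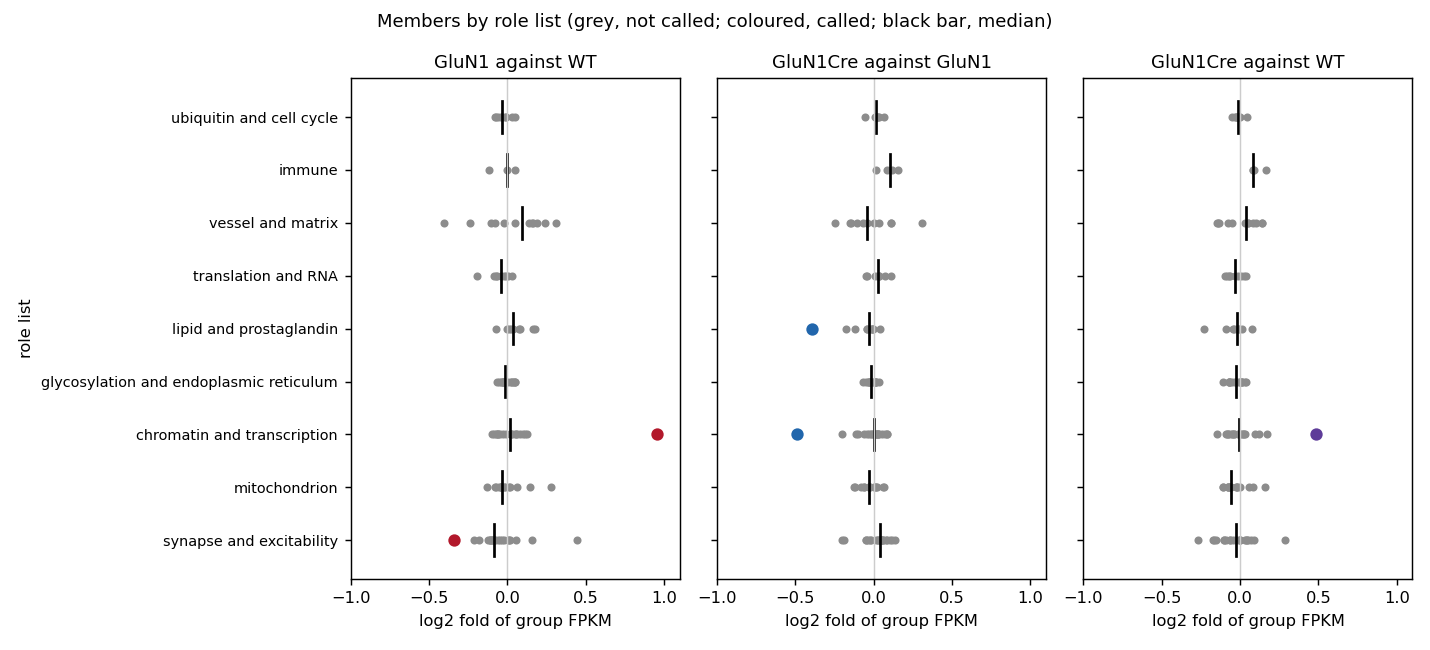
Log2 fold of group FPKM (horizontal axis) of members with a mean of at least 1 FPKM in 9 role lists (vertical axis), 1 panel per comparison; grey points were not called, coloured points were, and the black bar is the list's median. Medians lie between -0.08 and 0.10, and the coloured points are Fam163b and Pbx3 (left), Pbx3 and Pnpla7 (middle) and Pbx3 (right).

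The widest folds that were not called are given here for members with a mean of at least 1 FPKM; some members below that level had wider ones, such as an unnamed model at chr2:25988913-25989601 with 0.310 FPKM in WT and 0.110 FPKM in GluN1 (log2 fold -1.49, chosen after its values were seen). In GluN1 against WT these were the scarce Fam163b model, Cercam, the scarcer of 2 Bmyc models (10.5 to 8.01 FPKM, log2 fold -0.39), Cstad (1.87 to 1.45 FPKM, -0.37) and Lamc3. The abundant Bmyc model, at 49.3 and 45.3 FPKM, had a log2 fold of -0.12. In GluN1Cre against WT Cstad had the widest fold of those not called, -0.55 at 1.83 and 1.26 FPKM (p = 0.0326 in the authors' deposited table), followed by Nxph2, an unnamed model at chr2:24179661-24179843 (0.47, 21.2 and 29.4 FPKM), the antisense RNA gene Gm13375 (-0.40) and an unnamed model at chr2:17940468-17940943 (-0.34).

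In GluN1Cre against GluN1 the widest, in order, were an unnamed model at chr2:30647264-30653872 (log2 fold -0.36, 1.61 to 1.25 FPKM), Cercam (0.31), an unnamed model at chr2:30159495-30159799 (-0.28, 14.6 to 12.1 FPKM), 1 of 2 Enkur models (-0.26) and Lamc3 (-0.25). None of these passed the threshold in any table. Of the members, 36, 37 and 36 carried no symbol, and 97, 95 and 103 shared their listed locus with another member, so a distance from Grin1 is that of the locus as the tables give it.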

How the data were processed

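Frontal cortex RNA of 12 mice was sequenced. The series text says that reads went through the Tuxedo tools in Galaxy. Cuffdiff 2.2.1.3, Cufflinks 2.2.1.0, TopHat2 2.1.0, TopHat and FastQC 0.65 are listed by the submitters' processing notes, as are mm10 and GRCm38. FPKM values, 1 per group of 4 libraries, stand in the 3 tables deposited by the authors, per the file headers. Each p-value and q-value is the authors' own, per the file headers, and the smallest p was 5e-05. The columns call the groups NR1 and NR1Cre; NR1 is an older name of GluN1.

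Log2 folds were recomputed from the FPKM values with no pseudocount, for members with a mean of at least 1 FPKM where medians are given (Python 3.11.15, numpy 2.4.6, pandas 2.3.3). Listed starts are counted from 0 and were raised by 1. Distance runs from the nearest edge of the locus to the nearest edge of Grin1 in GENCODE M21. Models were matched across tables by symbol, overlapping locus and file order, unnamed ones by an overlap of 80%, giving 299, of which 233 were in all 3 tables. No test was fitted: the tables hold no value per animal, so each count or median stands beside that of all tested models. The steps were tested on simulated data.

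The genes named were every called member, the 6 nearest single-symbol members on each side with a mean of at least 1 FPKM, the called or else the 2 most abundant members of each of 9 role lists, and the 5 widest folds not called in each table at a mean of at least 1 FPKM; others are marked. Members, lists and rules were chosen with earlier results of these data known. Alternatives were another threshold, pseudocount, filter, centring, window and measure of distance.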

Additional observations from a re-analysis of the deposited data

How the results depend on the processing

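No paired analysis was possible because the tables hold 1 value per group and no value per animal, and for the same reason no animal could be left out. Of the called members' folds none changed sign with a pseudocount of 1 FPKM or with centring on all models. With centring, 5 of 116 folds of named genes changed sign, none of them larger than 0.01. The counts of 4, 2 and 3 called members were the same at q under 0.05, and within 5 Mb they were 3, 1 and 2. With a mean of at least 1 FPKM they were 4, 2 and 2, and with single symbols alone 3, 2 and 2. The median absolute fold on chromosome 2 beyond 10 Mb moved with the filter on low values: with no filter it was 0.0825, 0.0590 and 0.0741 in the 3 comparisons, and with a mean of at least 5 FPKM 0.0552, 0.0394 and 0.0504. The medians of the 4 nearer classes stayed within the 95% binomial interval of the reported median over models under every alternative run, including GENCODE positions and named models alone, both chosen after seeing the data. These intervals take models as independent, though many share loci, so staying within one is weak evidence that a median is stable. They are also wide for small classes. In GluN1Cre against GluN1 the median from 2.5 to 5 Mb went from 0.0449 to 0.0715 with no filter. With a mean of at least 5 FPKM it went to 0.0291. Depth is unknown, so how small a difference could be seen is unknown too.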
